A study of Bos taurus with 24 samples.

Results

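The small leucine-rich proteoglycans are secreted matrix proteins built around a chain of leucine-rich repeats, and most of them carry chondroitin, dermatan or keratan sulfate side chains. They bind collagen fibrils, where they help to set fibril diameter and spacing, and several of them hold growth factors of the transforming growth factor beta family or signal through Toll-like receptors when they are released as soluble protein. In skin, decorin and lumican are among the matrix products for which dermal fibroblasts are known. The 9 genes examined were taken by symbol: DCN, BGN and ASPN of class I, LUM, FMOD, PRELP and OMD of class II, OGN of class III, and PODN, which stands apart from these classes. Each symbol stood on 1 row of the expression tables, so all 9 were found among 27371 distinct gene symbols.

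RNA-Seq was performed on dermal fibroblasts grown from shoulder skin biopsies of Holstein (dairy) and Angus (beef) heifers of equal age. The 4 cultures of each breed, 1 per animal, were sampled at 0 h, untreated, and at 2 and 8 h after the bacterial endotoxin lipopolysaccharide (LPS) was added at 100 ng/ml, which gave 24 samples in 6 groups of 4. The cells had been passaged and frozen before the challenge, and pooled replicate wells made up each sample. Every sample after 0 h had received LPS, so the time in culture and LPS cannot be told apart. The animals, numbered 1 to 4 within a breed, are separate donors and were followed through the 3 time points, so values of 1 animal at different hours are not independent.

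Total counts ranged from 51014538 to 104406293 per sample, and 3 counts, taken as the smallest level the depth can show, stood for 0.029 to 0.059 CPM (counts scaled to a total of 1000000). Fibroblast markers were abundant (10 of 10 reached 1 CPM, with a summed level of 36566 to 122735 CPM), while the summed markers of keratinocytes, endothelial cells and leukocytes stayed at or below 15.1, 5.24 and 5.64 CPM. The summed markers of smooth muscle or pericytes, which dermal fibroblasts in culture partly share, lay at 3043 to 8231 CPM and were mostly ACTA2. In 4 samples (Angus 4, Holstein 2 and Holstein 4 at 0 h, Angus 3 at 2 h) reads of the collagen gene COL1A1 had been counted differently. The members were not counted differently there, except for PODN, which had 98 bases covered by each count in Holstein 4 at 0 h. Its value was 94.1 in Holstein 3 at 8 h, whose COL1A1 was counted as usual, and 64.3 to 79.1 elsewhere. All 9 members passed the filter on low values in every comparison.

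The rows are whole gene spans on build UMD v3.1, introns included, so exons and untranslated regions were not separated. The members lie in 3 clusters and at 2 single sites. LUM (chromosome 5, 21037443 to 21044658, minus strand) and DCN (chromosome 5, 21080010 to 21119087, minus strand) are separated by 35351 bases. FMOD (chromosome 16, 925081 to 935131, plus strand) and PRELP (chromosome 16, 1049458 to 1053560, plus strand) are separated by 114326 bases. OGN (chromosome 8, 85453134 to 85468721, plus strand), OMD (85473692 to 85484650, minus strand) and ASPN (85499323 to 85524670, minus strand) follow each other with 4970 and 14672 bases between them. BGN is at chromosome X, 39639906 to 39653691, plus strand, and PODN at chromosome 3, 93728450 to 93751305, minus strand. OGN, OMD and ASPN all lie inside the span of CENPP, a centromere protein gene on the plus strand. The deepest base of the CENPP row had the same depth as that of ASPN in 24 of 24 samples, so the CENPP count held reads of ASPN.

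The order of the members was compared by the depth at the most covered base, scaled to the same total count as CPM, a measure that does not depend on the length of the row. DCN had the highest median over the 24 samples (130.4, range 98.3 to 158.6), followed by LUM (72.6, 56.2 to 83.9), BGN (30.0, 16.8 to 44.2) and FMOD (15.4, 10.3 to 22.5). ASPN (9.41, 1.86 to 15.1), PRELP (2.76, 1.7 to 4.43) and OGN (2.14, 0.261 to 3.11) came next. OMD and PODN shared a median of 0.137, with ranges of 0.0479 to 0.221 and 0.0217 to 0.458. The ranges of DCN and LUM overlapped with no other member. BGN lay above FMOD in all 24 samples although their ranges overlapped, and FMOD above ASPN likewise. ASPN exceeded PRELP in 21 samples and PRELP exceeded OGN in 20. OMD and PODN could not be ordered, since OMD was higher in 13 samples.

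**Figure D1:**
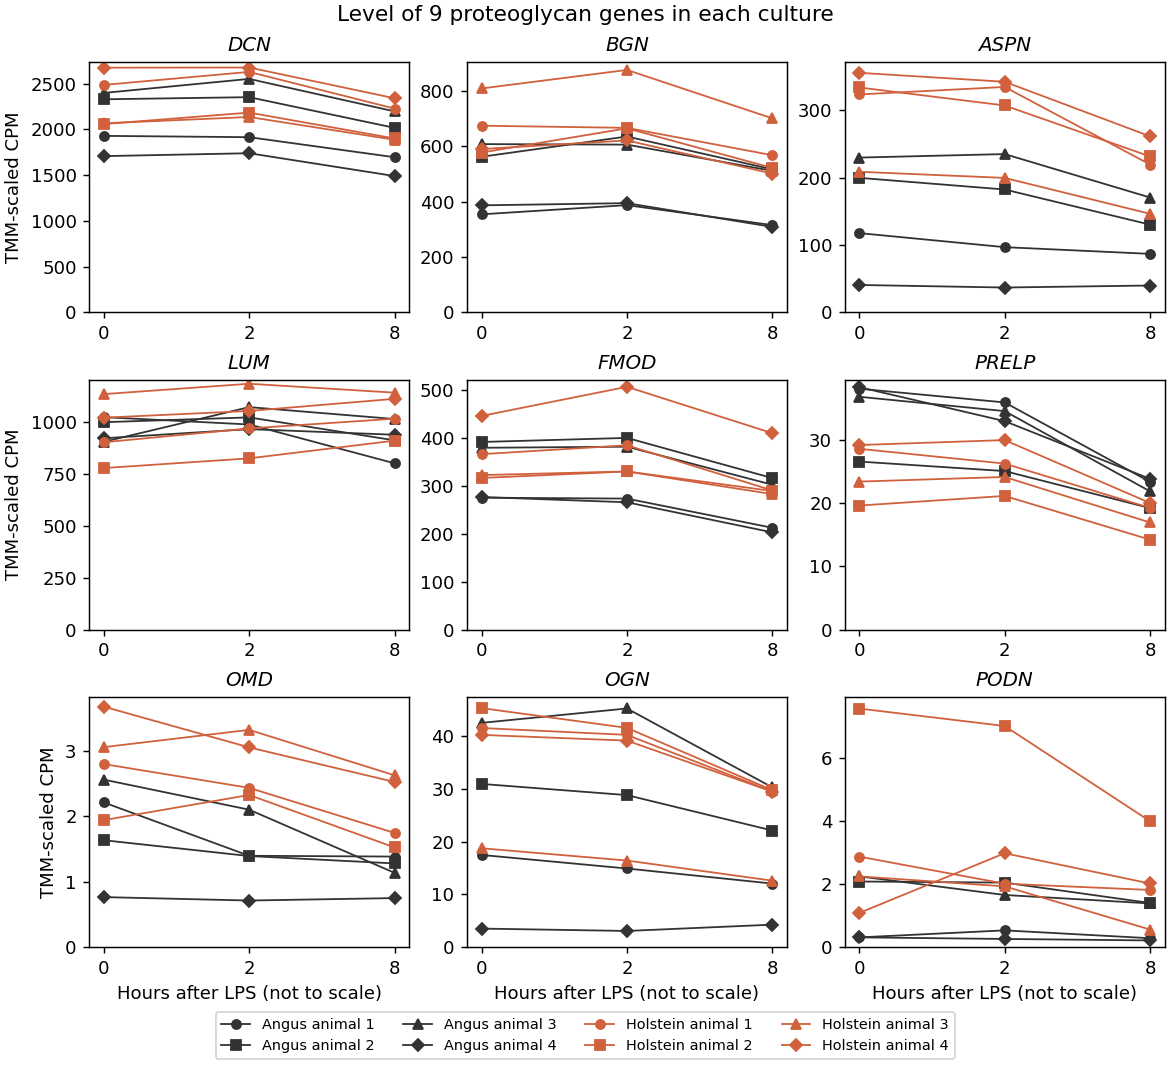
TMM-scaled CPM (vertical axis, linear from 0, a separate scale per gene) of the 9 genes at 0, 2 and 8 h after LPS, one line per animal with Angus in black and Holstein in orange. The lines of an animal mostly keep their order over the hours, ASPN and OGN of Angus 4 lie lowest at every hour, and the lines of PRELP fall by 8 h in all 8 animals.

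The levels below are in CPM after TMM scaling and serve to compare samples within a gene. Variation between animals was the largest share of the spread of log2 levels for 7 of the 9 genes. Animals within a breed held 68.4% of the sum of squares of DCN, 66.6% of LUM, 62.8% of FMOD, 48.5% of BGN, 51.5% of ASPN, 78% of OGN and 54.6% of PODN. Breed held the largest share for OMD (46.5%), and hour the largest share for PRELP (47.7%). Breed also held 43.6% for ASPN and 40.5% for BGN, but 2.8% for LUM. Animals have more degrees of freedom than breed or hour, so the shares do not rank the sizes of these effects. They are descriptions and were not tested.

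The first question was whether the cultures of the 2 breeds differed in these genes before and during the LPS challenge. A gene was past the threshold at a false discovery rate (FDR) under 0.05, a fold change of at least 2 and an average above 1 CPM in the edgeR likelihood-ratio test, as the study set it. None of the 9 members was past it at 0, 2 or 8 h, where 3.82%, 4.45% and 3.25% of all rows tested were. The unadjusted P was under 0.05 for 3, 5 and 4 members. Here and below, the share of all rows under this unadjusted limit was not counted, so such counts have no baseline. The F test of edgeR also called none at the 3 hours, and DESeq2 called only PODN, at 2 h. With the FDR limit alone, 1 member passed at each hour: PRELP, lower in Holstein at 0 h, and OMD, higher in Holstein at 2 and 8 h. The same limit was passed by 13.8%, 20.1% and 16.5% of all rows. The median log2 fold change of the members was 0.47, 0.48 and 0.48 at the 3 hours, beside 0.00, -0.01 and 0.01 over all rows.

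**Figure D2:**
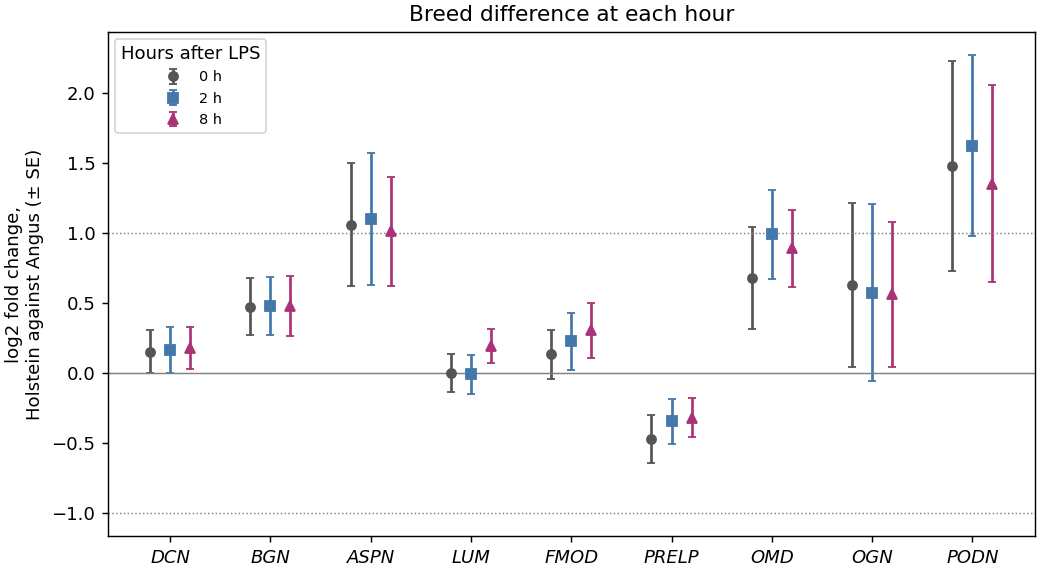
Log2 fold change of Holstein against Angus (vertical axis, points ± SE of the edgeR fit, 4 animals per breed) for each gene at 0, 2 and 8 h, with dotted lines at a 2-fold difference. PODN and ASPN lie above 1 at each hour with wide errors, LUM at 0 and 2 h lies at 0, and PRELP lies below 0 at each hour.

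DCN encodes decorin, the proteoglycan that coats type I collagen fibrils. Its mean ± SD was 2091 ± 329.0 CPM in Angus and 2321 ± 308.9 CPM in Holstein at 0 h (n = 4 each). The lowest and highest animals were 1707 and 2399 CPM in Angus and 2058 and 2675 CPM in Holstein, and the breeds overlapped. Holstein against Angus gave a log2 fold change of 0.15, 0.16 and 0.18 at the 3 hours, each with an SE of 0.15 to 0.16 and an FDR of 0.452 to 0.568.

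BGN, which encodes biglycan, the closest relative of decorin and a ligand of TLR2 and TLR4 when soluble, differed more. At 0 h it measured 354.0, 562.1, 607.8 and 386.4 CPM in Angus animals 1 to 4. In Holstein animals 1 to 4 it measured 674.3, 577.3, 809.0 and 590.0 CPM. Angus 1 and Angus 4 stood well below all others, and Angus 3 lay above 2 of the Holstein animals. The log2 fold change ± SE was 0.47 ± 0.20, then 0.48 ± 0.21 at both later hours, about 1.39-fold. It did not pass the FDR limit at any hour (FDR of 0.103, 0.0877 and 0.109).

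ASPN encodes asporin, a class I member without the usual glycosaminoglycan chains that binds collagen and transforming growth factor beta. At 0 h it measured 117.5, 199.6, 229.7 and 40.5 CPM in Angus animals 1 to 4. In Holstein animals 1 to 4 it measured 323.5, 333.8, 208.6 and 355.6 CPM. Of the 4 Holstein animals 3 lay above every Angus animal, and Holstein 3 fell between Angus 2 and Angus 3. Angus 4 stood lowest at all hours, with 36.7 CPM at 2 h and 39.7 CPM at 8 h. The mean was 2.08-fold higher in Holstein at 0 h, with a log2 fold change of 1.06 ± 0.44 and an FDR of 0.0923. At 2 h the log2 fold change was 1.10 ± 0.47 (FDR = 0.0856), and at 8 h it was 1.01 ± 0.39 (FDR = 0.0567), so that ASPN missed the FDR limit at each hour. Without Angus 3 it was past the threshold at 0 h (log2 fold change 1.36, FDR = 0.0192), 2 h (1.49, FDR = 0.00903) and 8 h (1.32, FDR = 0.00416). At 8 h it was also past it without Holstein 3 (1.15, FDR = 0.048) and, with all animals, among rows with a symbol only (1.01, FDR = 0.0495). At 2 h it was past it with plain totals as scaling (1.16, FDR = 0.0489). Angus 3 was the highest Angus animal and Holstein 3 the lowest Holstein animal at each hour, so leaving either out widens the difference.

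Of the class II members, LUM, which encodes lumican, did not separate the breeds. Its mean was 961 ± 57.9 CPM in Angus and 958 ± 153.0 CPM in Holstein at 0 h, and 915 ± 88.2 against 1043 ± 104.3 CPM at 8 h. Its fitted differences were 0.00 ± 0.14, -0.01 ± 0.14 and 0.19 ± 0.12 on the log2 scale at 0, 2 and 8 h (FDR of 0.991, 0.966 and 0.284). FMOD, which encodes fibromodulin, a keratan sulfate proteoglycan that shares a collagen binding site with lumican, had 331 ± 63.3 CPM in Angus and 362 ± 59.7 CPM in Holstein at 0 h. Its log2 fold change was 0.13 ± 0.17, 0.23 ± 0.20 and 0.30 ± 0.20 at the 3 hours, and the breeds overlapped at each (FDR of 0.677, 0.466 and 0.303).

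PRELP encodes a member that joins collagen to basement membrane proteoglycans through heparan sulfate, and it was the only one of the 9 with a lower mean in Holstein at all 3 hours. At 0 h it measured 38.0, 26.5, 36.7 and 38.3 CPM in Angus animals 1 to 4. In Holstein animals 1 to 4 it measured 28.5, 19.6, 23.4 and 29.1 CPM. The breeds overlapped because Angus 2 lay below Holstein 1 and Holstein 4. PRELP was lower in Holstein by a log2 fold change of -0.47 ± 0.17 at 0 h (FDR = 0.0479), -0.34 ± 0.16 at 2 h (FDR = 0.109) and -0.32 ± 0.14 at 8 h (FDR = 0.104). The call at 0 h was lost for PRELP in the F test (FDR = 0.0862) and without the samples in which COL1A1 was counted differently (-0.38, FDR = 0.512). It was also lost without Angus 1, Angus 3, Angus 4, Holstein 1, Holstein 2 or Holstein 3, with an FDR of 0.0596 to 0.168 in these fits.

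OMD encodes osteomodulin, a keratan sulfate proteoglycan best known from bone, and it was the one member whose breeds did not overlap at some hour. At 2 h it measured 1.40, 1.39, 2.10 and 0.713 CPM in Angus animals 1 to 4. In Holstein animals 1 to 4 it measured 2.44, 2.33, 3.32 and 3.06 CPM. At 8 h it measured 1.39, 1.28, 1.14 and 0.750 CPM in Angus and 1.75, 1.53, 2.63 and 2.53 CPM in Holstein. All Holstein samples were above all Angus samples at 2 and 8 h, which was so for 1 of 9 members at each hour. Breeds that did not overlap were found in 24% of all rows at 2 h and in 20.4% at 8 h. At 0 h, where 17.3% of all rows were separated, none of the members was, and OMD of Holstein 2 (1.94 CPM) lay below Angus 1 (2.21 CPM) and Angus 3 (2.56 CPM). The log2 fold change was 0.68 ± 0.37 at 0 h (FDR = 0.217), 0.99 ± 0.32 at 2 h (1.98-fold, FDR = 0.0147) and 0.89 ± 0.28 at 8 h (1.85-fold, FDR = 0.0146). Both later differences passed the FDR limit and missed the limit on fold. The call at 2 h was lost without Angus 1, Holstein 3 or Holstein 4 (FDR of 0.0529, 0.0622 and 0.0612). That at 8 h was lost in the F test (FDR = 0.0504) and without Angus 4, Holstein 3 or Holstein 4 (FDR of 0.0649, 0.0639 and 0.0829). Without Angus 3 the difference at 2 h was 1.26 (FDR = 0.000324) and past the threshold. It was also past it without Holstein 1 or Holstein 2, at 1.05 and 1.07, and at 8 h without Holstein 2, at 1.02.

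OGN encodes osteoglycin, also called mimecan, which takes part in collagen fibril assembly. At 0 h it measured 17.5, 31.0, 42.6 and 3.52 CPM in Angus animals 1 to 4. In Holstein animals 1 to 4 it measured 41.6, 45.4, 18.8 and 40.3 CPM. Angus 4 was far below all others at every hour (3.07 CPM at 2 h, 4.26 CPM at 8 h), Holstein 3 was the lowest of its breed, and Angus 3 reached the level of the other Holstein animals. The log2 fold change was 0.63 ± 0.58, 0.57 ± 0.63 and 0.56 ± 0.52 at the 3 hours (FDR of 0.527, 0.567 and 0.501). The size of the difference was thus close to its SE.

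PODN encodes podocan, a leucine-rich repeat protein that binds collagen type I. At 0 h it measured 0.309, 2.09, 2.25 and 0.310 CPM in Angus animals 1 to 4. In Holstein animals 1 to 4 it measured 2.88, 7.58, 2.25 and 1.09 CPM. Holstein 2 stood highest at every hour (7.03 CPM at 2 h, 4.00 CPM at 8 h), and Angus 1 and Angus 4 stayed at or below 0.532 CPM. For PODN the log2 fold change was 1.48 ± 0.75 at 0 h (FDR = 0.195), 1.62 ± 0.65 at 2 h (FDR = 0.0634) and 1.35 ± 0.71 at 8 h (FDR = 0.19). At 2 h it was past the threshold without Angus 2 (2.09, FDR = 0.028) or Angus 3 (1.87, FDR = 0.0451). These were the Angus animals with the most PODN at 2 h (2.05 and 1.66 CPM), so leaving either out widens the difference.

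Some markers of other cell types moved with breed beside these genes. At 0 h the summed smooth muscle or pericyte markers lay at 3747 to 6197 CPM in the Angus samples and at 6546 to 8231 CPM in the Holstein samples, although they overlapped at 2 h (4565 to 7039 against 6216 to 7497 CPM). Of the 10 fibroblast markers, 3 were higher in Holstein at 0 h by the FDR limit (FAP, COL3A1 and COL1A2, log2 fold change of 1.04, 0.92 and 0.49) and 1 was lower (PDGFRA, -0.93). At 2 and 8 h 4 were higher and 1 lower. The cartilage markers, of which 3 of 4 were found and ACAN made up most, ran from 5.35 to 29.7 CPM for Angus and from 26.1 to 165.3 CPM for Holstein at 0 h. The melanocyte markers, mostly MITF, were higher in Angus at 0 h, with 10.3 to 11.5 against 5.89 to 7.98 CPM. They were also higher in Angus at 8 h (9.39 to 12.3 against 6.55 to 8.48 CPM) and overlapped at 2 h. The leukocyte markers, mostly CD68, lay at 3.31 to 5.05 against 2.03 to 3.30 CPM at 0 h and overlapped at 2 and 8 h. The keratinocyte markers stayed at or below 1.87 CPM in Angus and lay at 1.69 to 15.1 CPM in Holstein. The part of these in the breed values of the proteoglycans was not tested. In such bulk samples fewer cells of a type and less RNA per cell cannot be told apart.

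**Figure D3:**
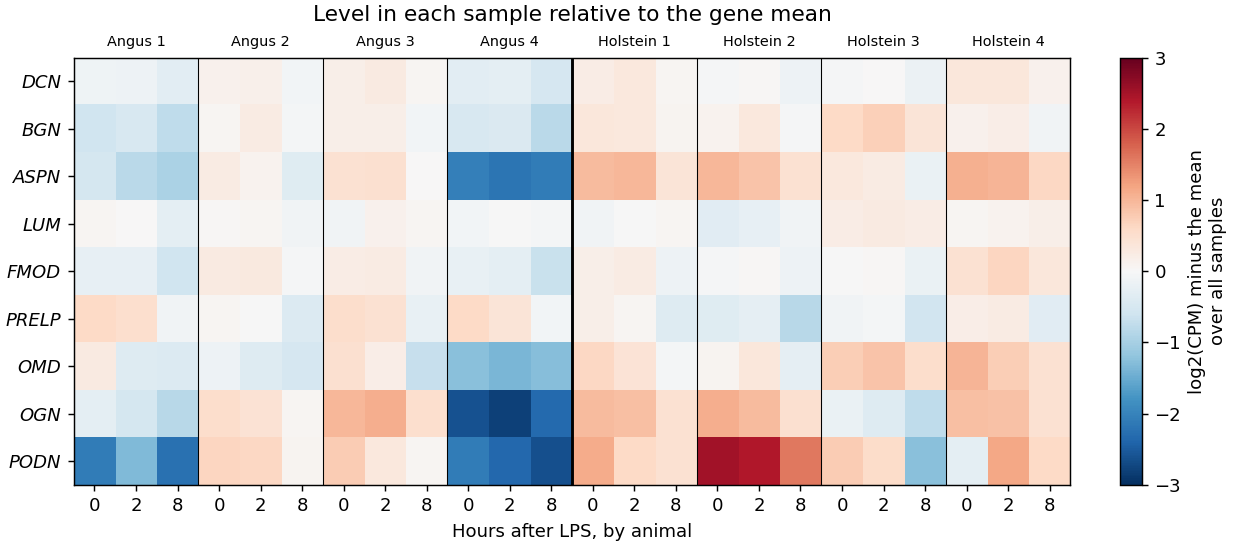
Colour gives log2(CPM) minus the gene's mean over 24 samples, for the 9 genes (rows) in each sample (columns, 3 hours per animal, Angus left and Holstein right of the thick line). The scale runs from blue (below the mean) to red (above), with OGN of Angus 4 lowest at -2.80 and PODN of Holstein 2 highest at 2.52.

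The members did not form 1 pattern over the samples. Of 36 pairs of members, 29 had a Pearson r above 0 and 20 an r above 0.5 over the log2(CPM + 1) values of the 24 samples (median 0.57, range -0.41 to 0.95). These samples share 8 animals, so the values are descriptions. The highest r was that of ASPN and OGN (0.95), neighbours in the chromosome 8 cluster, while OMD, which lies between them, had 0.80 with ASPN and 0.65 with OGN. PRELP had an r of -0.41 with PODN and -0.28 with ASPN, and 0.14 with FMOD, which lies before it on chromosome 16. DCN and FMOD had an r of 0.93. With the means of the 6 groups removed, r was 0.99 for ASPN and OGN and 0.90 for DCN and FMOD. For OMD it was then 0.59 with ASPN and 0.52 with OGN. For PRELP it was -0.65 with PODN, -0.22 with ASPN and 0.01 with FMOD. The r values with other genes, given next, still hold the differences between breeds and hours. Among the symbols tested, leaving out rows that overlap the gene (CENPP for ASPN, OGN and OMD), DCN was most like UNC5C (0.93), a netrin receptor gene, and TIMP2 (0.93), an inhibitor of metalloproteinases. BGN was most like COL12A1 (0.94), OLFM2 (0.93) and TPM1 (0.93), which encode a fibril-associated collagen, an olfactomedin and a tropomyosin. OMD was most like COL1A2 (0.92), a chain of type I collagen, and ASPN most like HEBP2 (0.95) and SLC12A7 (0.95). LUM was most like CALCA (0.885), a calcitonin gene, and PRELP most like PPL (0.895), which encodes periplakin.

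The second question was how the genes changed after LPS. The cultures responded, since 5 of 6 cytokine and NF-kB target genes kept as a check were past the threshold at 2 h and 6 of 6 at 8 h, with median log2 fold changes of 5.54 and 5.38. No proteoglycan of the 9 was past the threshold at 2 or 8 h with the breeds combined (8 samples per hour), where 2.82% and 1.42% of all rows were. The unadjusted P was under 0.05 for 0 members at 2 h and 1 at 8 h, and the F test and DESeq2 also called none. With the FDR limit alone, none passed at 2 h (22.0% of all rows did). At 8 h PRELP passed as lower (log2 fold change -0.61 ± 0.15, FDR = 0.00086), and 6.25% of all rows were lower by this limit. PRELP kept this call in every alternative fit, with an FDR of at most 0.0125.

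The fits above take no account of the animal. The hours of an animal are paired by the labels, and with the animal as a block 8 of 9 members were lower at 8 h with the FDR limit alone and none was higher. By the same fit 21.2% of all rows were lower and 19.4% higher. None of the 8 decreases was 2-fold, so with the fold limit the count was 0. The member left out was LUM. With the F test in the same block 7 members were lower (PODN had an FDR of 0.0531), as were 22.0% of all rows. The FDR of these 7 ran from 4.07e-06 (PRELP) to 0.00396 (OMD) in the F test. The FDR of each 8 h decrease given per gene below is that of the likelihood-ratio test, which was smaller. The median log2 fold change of the members was -0.44 beside -0.01 over all rows. This count of FDR calls with the block was chosen after the data had been seen. Markers of several cell types also moved at 8 h in this fit. Of the 10 fibroblast markers 5 were lower, PDGFRB and THY1 among them (-0.24 and -0.19), and 1 was higher. Of 4 smooth muscle or pericyte markers tested 1 was lower, ACTA2 (-0.51, FDR = 2.3e-15), and the summed level at 8 h was 3043 to 4899 CPM for the Angus animals and 4072 to 5708 CPM for the Holstein animals. FABP4, an adipocyte marker (-0.38, FDR = 0.00406), and ACAN (-0.24, FDR = 0.00101) were lower, and CD68 (0.54, FDR = 0.000702) was higher. Their part in the decrease of the proteoglycans was not tested.

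**Figure D4:**
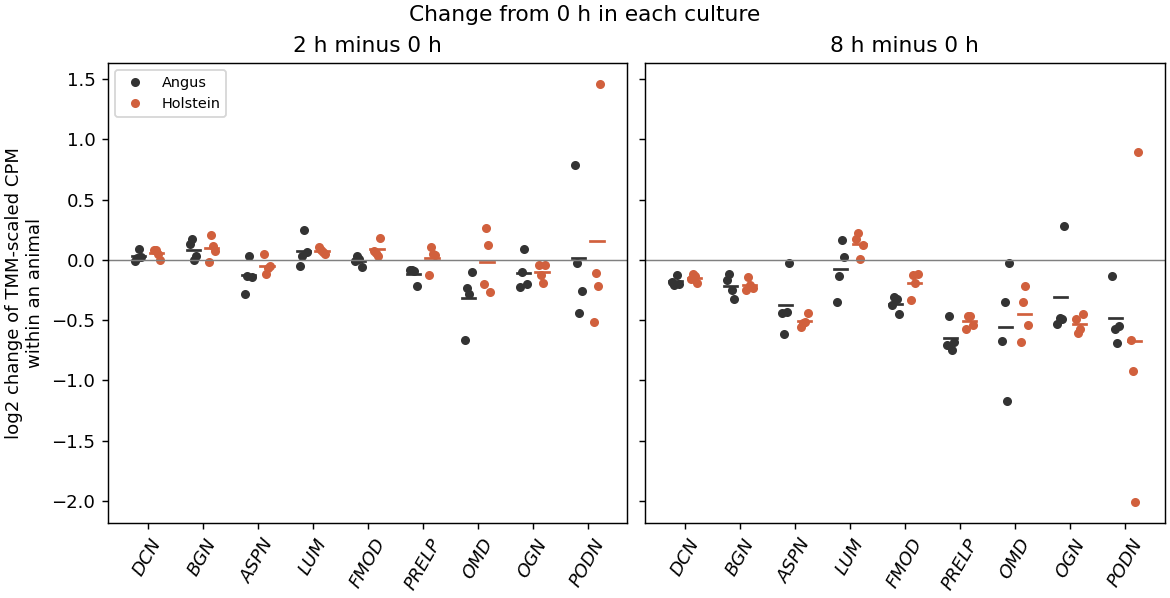
Log2 change of TMM-scaled CPM from 0 h within each animal (vertical axis, points, 4 Angus in black and 4 Holstein in orange, bars at the breed mean) at 2 h (left) and 8 h (right). At 2 h the points of most genes straddle 0, and at 8 h all 8 points of DCN, BGN, ASPN, FMOD, PRELP and OMD lie below 0 while those of LUM straddle it.

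PRELP was lower at 8 h in every animal. At that hour it measured 23.3, 19.2, 21.8 and 23.8 CPM in Angus animals 1 to 4 and 19.2, 14.2, 16.9 and 19.99 CPM in Holstein animals 1 to 4. The log2 changes from the animals' own 0 h levels were -0.75 to -0.46. In the blocked fit the log2 fold change was -0.59 ± 0.05, a decrease of 33.5% (FDR = 5.4e-27). At 2 h the change was -0.06 ± 0.05 (FDR = 0.344), and it was downward in 4 of 4 Angus and 1 of 4 Holstein animals.

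The gene-free interval that directly follows PRELP on its strand (chromosome 16, 1053561 to 1060373) held 1.76 counts for each count of PRELP. It measured 59.7 ± 7.68 CPM in Angus and 43.7 ± 6.06 CPM in Holstein at 0 h, and 39.1 ± 4.93 and 31.4 ± 4.65 CPM at 8 h. Its change at 8 h in the blocked fit was -0.55 ± 0.05 (FDR = 9.92e-25), and its breed difference at 0 h was -0.45 ± 0.14 (FDR = 0.02). The row thus moved with PRELP in both comparisons, and whether its reads belong to the PRELP transcript was not tested. No other member had an adjoining interval with more counts than its own row, although the interval between OGN and OMD held 55.3% of the count of OMD.

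**Figure D5:**
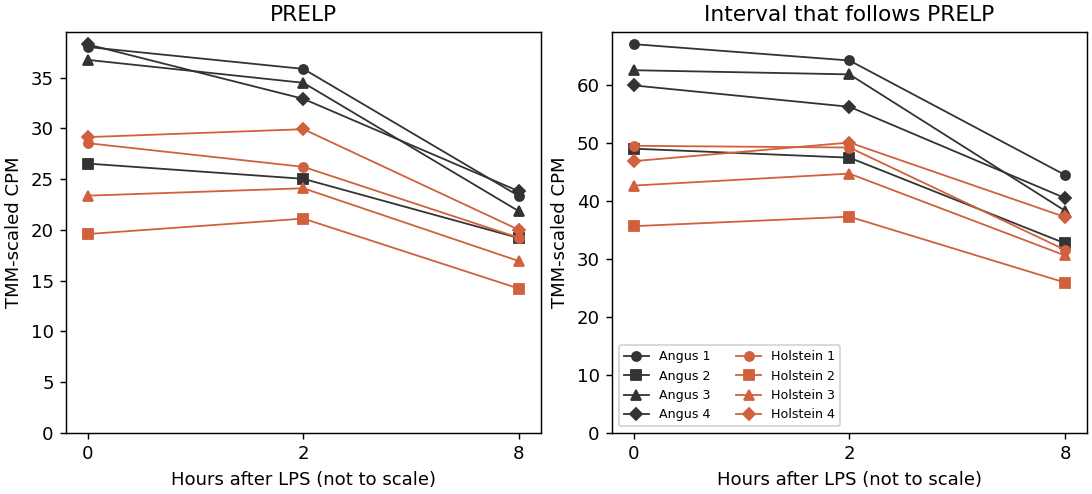
TMM-scaled CPM (vertical axes, linear from 0) of PRELP (left) and of the gene-free interval that follows it (right) at 0, 2 and 8 h, one line per animal. Both rows are lower at 8 h than at 0 h in all 8 animals, and the Angus means lie above the Holstein means at each hour.

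In class I, ASPN fell by 0.45 ± 0.06 on the log2 scale in the blocked fit (26.9%, FDR = 1.16e-11). At 8 h it measured 86.7, 130.1, 170.4 and 39.7 CPM in Angus animals 1 to 4 and 219.4, 231.4, 146.2 and 261.3 CPM in Holstein animals 1 to 4. All 8 animals were below their 0 h level, but in Angus 4, where the gene was already low, the change was -0.03. BGN fell by 0.22 ± 0.04 (FDR = 3.33e-06) and DCN by 0.17 ± 0.04 (11.1%, FDR = 0.000244), each in 8 of 8 animals. With plain totals as scaling, the call of DCN was lost. Mean DCN in Holstein went from 2321 ± 308.9 to 2089 ± 230.2 CPM. In Angus it went from 2091 ± 329.0 to 1850 ± 317.2 CPM. Among the animals the log2 change of DCN ran only from -0.21 to -0.11.

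In class II, FMOD fell by 0.28 ± 0.05 (17.9%, FDR = 2.01e-07) in 8 of 8 animals. Its Angus animals changed by -0.45 to -0.31 and its Holstein animals by -0.33 to -0.12. OMD fell by 0.52 ± 0.13 (30.4%, FDR = 0.000168) in 8 of 8 animals, from a change of -0.03 in Angus 4 to -1.17 in Angus 3. LUM did not pass, with a log2 fold change of 0.02 and a 95% interval of -0.11 to 0.16 (FDR = 0.807). It was higher at 8 h than at 0 h in 4 of 4 Holstein and 2 of 4 Angus animals, and its largest decrease was in Angus 1 (1022 to 800 CPM). In that sample each count of LUM covered 98.2 bases, while the other samples had 89.5 to 90.4.

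OGN fell by 0.44 ± 0.08 (26.3%, FDR = 6.08e-07). At 8 h it measured 12.1, 22.1, 30.3 and 4.26 CPM in Angus animals 1 to 4 and 29.5, 29.8, 12.6 and 29.5 CPM in Holstein animals 1 to 4. It was lower in 7 of 8 animals, and Angus 4, at its very low level, rose by 0.28. PODN fell by 0.60 ± 0.24 (34.1%, FDR = 0.0352). It was lower in 7 of 8 animals, and Holstein 4 rose from 1.09 to 2.02 CPM, where the 0 h sample was one of the 2 with the other covered bases per count. The other was Holstein 3 at 8 h, which gave the largest decrease of PODN (2.25 to 0.558 CPM, a log2 change of -2.01). Its call was lost when Angus 2, Angus 3, Angus 4, Holstein 1, Holstein 2 or Holstein 3 was left out, without the filter on low values and with plain totals. Thus 6 of 9 members were lower in all 8 animals, as were 14.0% of all rows.

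At 2 h none of the 9 members was lower in all 8 animals (18.3% of all rows were). None passed the FDR limit in the blocked likelihood-ratio test either, although 47.5% of all rows did. The unadjusted P was under 0.05 for 1 member. The closest was OGN (log2 fold change -0.10 ± 0.05, FDR = 0.0882). The blocked F test called OGN as lower (FDR = 0.0465) and BGN as higher (0.08 ± 0.05, FDR = 0.0407), and DESeq2 with the block called 1 member in each direction, of which ASPN was the lower one. DCN and LUM were higher at 2 h in 7 of 8 animals, with fold changes of 0.04 ± 0.05 and 0.07 ± 0.05 on the log2 scale.

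The third question was whether the change after LPS differed between the breeds. None of the 9 members was past the threshold for the breed by LPS interaction at either hour, where 0.278% and 0.0982% of all rows were. The unadjusted P was under 0.05 for none in edgeR's likelihood-ratio test, its F test or DESeq2. The differences in log2 change (Holstein minus Angus) ran from -0.04 to 0.32 at 2 h and from -0.13 to 0.21 at 8 h, and the FDR was 1 for each. With the animal as a block the errors were smaller, and none of the members passed the FDR limit alone, which 4.28% of all rows passed at 2 h and 2.59% at 8 h. The unadjusted P of the likelihood-ratio test was under 0.05 for 0 members at both hours. In the blocked fit the difference at 8 h was 0.17 ± 0.09 for FMOD (FDR = 0.417), the lowest FDR of the members, with an unadjusted P of 0.0255 in the F test (FDR = 0.288). LUM had the largest difference in size at 8 h, 0.20 ± 0.12 (FDR = 0.524 in the likelihood-ratio test). The 95% interval of the difference was -0.03 to 0.44 for LUM, -0.36 to 0.10 for ASPN and -0.50 to 0.10 for OGN. It was -0.05 to 0.33 for PRELP and -0.14 to 0.19 for DCN. That of PODN was the widest, from -1.12 to 0.77.

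Genes that act with these proteoglycans were counted in the same fits. The counts at 8 h are to be read against the 19.4% of all rows that were higher and the 21.2% that were lower in the blocked fit. Of 22 collagens and fibril partners, 13 were lower and 0 higher at 8 h with the block and the FDR limit alone, with a median log2 fold change of -0.20. Between the breeds, 9, 9 and 12 of them were higher in Holstein at 0, 2 and 8 h by the FDR limit and 0 lower, while 13.8%, 20.1% and 16.5% of all rows passed that limit in either direction. FN1, which encodes fibronectin, was past the threshold at each hour (log2 fold change of 1.22, 1.17 and 1.16). COL1A1 was past it at 8 h of LPS without the block (-1.35, FDR = 0.0031), and it is the gene with the other counting in 4 samples. Collagens are the main binding partners of the proteoglycans.

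The enzymes that build their side chains were called in both directions. Of 18 genes for the glycosaminoglycan linker and chondroitin or dermatan sulfate, 6 were higher and 3 lower at 8 h with the block. CHST11, a chondroitin sulfotransferase, was past the threshold (1.07, FDR = 2.82e-08, no block). CHPF, a chondroitin polymerising factor, was higher in Holstein at 0, 2 and 8 h (1.26, 1.19 and 1.06). Of 8 keratan sulfate genes 3 were higher and 3 lower at 8 h of LPS, and CHST1, a keratan sulfate sulfotransferase, was lower in Holstein at 0 h (-1.22) and 8 h (-1.14). Of 11 proteases that cut these proteins 3 were higher and 5 lower at 8 h with the block.

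Among 19 signalling partners and receptors, 7 were higher and 7 lower at 8 h with the block. Between the breeds, 3 were past the threshold as higher in Holstein and 2 as lower at 0 h. The counts were 3 and 3 at 2 h, and 3 and 0 at 8 h. Of all rows, 3.82%, 4.45% and 3.25% were past it at these hours in either direction. TLR4, a receptor of both LPS and soluble biglycan, was higher in Holstein at 0, 2 and 8 h (1.59, 2.01 and 1.34), as was TGFB2 (1.33, 1.56 and 1.62). TGFBR3, a co-receptor for transforming growth factor beta, was lower in Holstein at 0 h (-1.26), and TLR2, the other Toll-like receptor of biglycan, was lower at 2 h (-1.49). At most 3 genes of the list were named per hour, so a gene not named at an hour may still have differed there. ITGA2, a collagen receptor subunit, was higher at 8 h (1.53). TLR2 was higher at 8 h of LPS (2.26, FDR = 1.2e-06). Of 18 other proteoglycans, 6 were higher and 7 lower at 8 h with the block. ESM1, ACAN and AGRN had the largest breed differences of that list at 0 h, ESM1 lower (-2.55) and ACAN (2.56) and AGRN (1.65) higher in Holstein. Of the other small leucine-rich repeat genes only 2 passed the filter at 2 h and 3 at 8 h, and TSKU, which encodes tsukushi, was past the threshold as higher at 2 h (1.19, FDR = 4.76e-21). KERA and EPYC, which encode keratocan and epiphycan, stayed at group means of at most 0.456 and 0.101 CPM.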

How the data were processed

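Polyadenylated RNA of the 24 samples was sequenced on an Illumina HiSeq. Per the labels, base calling used CASAVA 1.7. The authors removed reads of low quality, aligned the rest to UMD v3.1 with NextGENe 2.3.4 and deposited raw whole-number read counts per row, without normalization. The deposited mean coverage and maximal coverage (signal) of each row were used only for covered bases per count and for the depth at the most covered base. A read could be counted in more than 1 row, and strand use is not given in the sources used here. The authors' edgeR settings beyond the test and filter are not given there either.

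Counts were fitted here with edgeR 4.0.16 (R 4.3.3) by a generalized linear model and likelihood-ratio test, TMM scaling and Benjamini-Hochberg adjustment over all rows tested. Rows with at least 1 CPM in at least 50% of the samples compared were kept. P-values from edgeR and DESeq2 1.42.0 come from models across all rows. Breeds were compared within each hour, LPS at 2 and 8 h was compared with 0 h over both breeds, and the interaction used both. The fitting without a block was tested on simulated counts of independent samples. The blocked fits were not tested in this way. Samples of the same animal were paired by the labels, and their deviations from group means correlated across rows (mean r of 0.658 between 0 and 2 h, lowest 0.545, and 0.619 between 0 and 8 h, lowest 0.533), so blocked fits are given where they change a call.

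The members and gene lists were chosen with earlier results of these data known. All 9 members are described. Of each related list at most 3 genes past the threshold with the largest change are named per comparison, and genes named for likeness are among the 3 with the highest r whose rows do not overlap the member. KERA and EPYC, and the lower calls of single fits, were named after their values were seen. Alternatives were the F test, DESeq2, other scalings and filters, and leaving out samples.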

Additional observations from a re-analysis of the deposited data

Results flagged for a closer look

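In 4 of the 54 groups of 4 samples (9 genes in 6 groups) 1 sample stood apart, its gap to the nearest other sample taking a larger share of the group's range than Dixon's 95% limit for 4 samples allows. Chance alone gives such a gap in about 1 of 20 groups. FMOD of Holstein 4 at 8 h was 409.6 CPM, while the other Holstein cultures lay at 282.6 to 290.3 CPM, and the same animal was also the highest of its breed at 0 and 2 h. OGN of Holstein 3 was 16.43 CPM at 2 h, where the other Holstein cultures lay at 39.19 to 41.61 CPM. It was 12.61 CPM at 8 h, where the others lay at 29.51 to 29.78 CPM. PRELP of Angus 2 was 26.52 CPM at 0 h, and the other Angus cultures lay at 36.74 to 38.26 CPM.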

How the results depend on the processing

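None of the 9 genes was past the threshold in any main comparison, and this count changed under some alternatives. With the FDR limit alone it was 1 between the breeds at 0, 2 and 8 h and 1 for LPS at 8 h. Between the breeds at 2 h it was 1 with DESeq2 (PODN) and 2 with plain totals (ASPN and OMD). It was 3 (ASPN, OMD and PODN) without the samples in which COL1A1 was counted differently. At 2 h Angus 3 is the only such sample, so this is the same fit as that without Angus 3. At 8 h the count was 1 with rows carrying a symbol only (ASPN). Leaving out 1 animal gave 0 to 1, 0 to 3 and 0 to 1 at the 3 hours, the highest without Angus 3 (at 8 h also without Holstein 2 or 3). With the replicate block the number past the threshold for LPS remained 0 at both hours. The number lower by the FDR limit with the block was 8 at 8 h, ran from 7 to 8 when 1 animal was left out, was 8 without the animals of the samples with the other counting, 6 with plain totals (without DCN and PODN), 7 without the filter and 0 with the limits on fold and CPM. At 2 h it was 1 with the F test, 1 with DESeq2 and 2 with plain totals, and 0 to 1 without 1 animal. For most of these alternative fits the share of all rows called was not counted, so their counts of members have no baseline. Over all alternative fits of the 45 single values, 727 values kept sign and call, 21 gained a call and 26 had the other sign. The 26 were all of differences that did not pass the FDR limit in either fit. Without the samples with the other counting, these were LUM (0.061), FMOD (-0.021) and OGN (-0.013) between the breeds at 0 h, LUM (0.022) at 2 h, DCN (-0.02016), BGN (-0.003395), LUM (-0.001501) and PODN (0.28) for LPS at 2 h and LUM (-0.014) at 8 h. With plain totals they were LUM (0.00223) between the breeds at 2 h and DCN (-0.029), LUM (-0.002242) and FMOD (-0.019) for LPS at 2 h. With symbol rows LUM was 0.003329 between the breeds at 2 h. PODN for LPS at 2 h was 0.044 with the replicate block and 0.01971 with the block and F test. Without 1 animal, LUM ran from -0.092 to 0.086 at 0 h and from -0.094 to 0.079 at 2 h between the breeds, and PODN from -0.19 to 0.049 for LPS at 2 h. The cause of these changes was not tested. With plain totals the median of all rows was -0.10 between the breeds at 0 h (0.00 with TMM) and 0.11 for the interaction at 2 h (0.01 with TMM). With 4 animals per breed the SE of ASPN, OGN and PODN was 0.39 to 0.75, which limits what could be called.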
